A study of Oryza sativa with 12 samples.

Results

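A group of 142 transcripts read higher in leaves of the rice mutant osnox2 than in wild-type leaves on every array, in watered and in droughted plants alike. They are probe sets (the short probes on an array that read 1 transcript or a few like ones) whose lowest value on the 6 osnox2 arrays lay above their highest value on the 6 WT arrays. Probe sets had to exceed the median of an array on 3 or more of the 12, reporter probe sets were set aside, and genes with heat shock protein (HSP) names were left out. This kept 32012 probe sets of 57194. The genotypes did not overlap in this direction in 146 of them, or 0.456%, and 4 of these were left out as HSP: 3 match HSP81-3, and 1 matches several genes with HSP81-3 among them. A further 24 probe sets were separated in the same way but failed the filter on low values. In the opposite direction 119 kept probe sets, or 0.372%, read lower on all osnox2 arrays. The difference between the genotypes chose the members, so it is described below without a test.

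NADPH oxidases of plants, the Rboh proteins, sit in the plasma membrane and pass electrons from NADPH to oxygen outside the cell. The superoxide they make and the hydrogen peroxide that follows act as signals in defence, growth and the response to dry soil. The mutant osnox2 is a T-DNA insertion line, in which a piece of bacterial DNA has landed in the plant genome.

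The study asked how osnox2 and WT leaves differ under drought. RNA came from the youngest fully expanded leaf of rice (Oryza sativa) plants aged 2.5 months, with 3 arrays for each pairing of genotype (WT or osnox2) and condition (control or drought), which makes 4 groups. Control plants were taken on day 0 of the treatment at a soil moisture of 47.3 ± 1.9%, and drought plants on day 15 at 8.5 ± 2.1%, so drought and the 15 days cannot be told apart. Plants of both genotypes shared pots, and both had been kept under submerged soil before the treatment. WT is the japonica cultivar Dongjin. All osnox2 arrays carry 1 mutant genotype, so the insertion and anything else that sets this line apart from WT cannot be told apart. In whole leaves, fewer cells of a type and less RNA per cell cannot be told apart either. The oxidase gene that gives osnox2 its name was not matched to a probe set here, so its level is not given.

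Values are log2 MAS5 signals as deposited, on which a difference of 1 is a doubling, and array medians lay between 5.08 and 5.43. Of genes that mark leaf tissue, RBCS, the small subunit of Rubisco, read 14.22 to 14.70 and CAB2R, of the light-harvesting complex, 14.94 to 15.69 over the 12 arrays. The seed glutelin GLUA-2 read 9.68 to 10.81 and the floral gene MADS1 5.21 to 7.61. These 4 were picked from longer marker lists after their values were seen, since the lists were filled by the start of a gene's name and caught other genes too, such as haemoglobins under seed storage and RCCR1, a gene of chlorophyll breakdown, under root. In control plants the mean of the seed storage list was 5.61 to 5.84 in WT and 5.07 to 5.35 in osnox2, and that of the inflorescence and meristem list 4.75 to 4.87 and 4.15 to 4.55, without overlap. Under drought the genotypes overlapped in both lists, at 4.78 to 5.62 against 4.50 to 5.67 and 4.40 to 4.87 against 4.41 to 4.65, and the root list and the leaf list overlapped in both conditions. No member is in these lists, and their part in the members' differences was not tested. Of the 12 arrays 3 stood apart from the rest: osnox2 control replicates 1 and 2 and WT control replicate 1. Their correlations with each other over the kept probe sets were 0.932 to 0.954 and those among the other 9 arrays 0.918 to 0.959, whereas those between the 3 and the 9 were 0.868 to 0.895. A reporter probe set outside the members, RPTR-Os-K01193-1_at, set the labelled genotypes apart on all arrays: it read 0.73 to 2.97 on the WT arrays and 12.45 to 13.32 on the osnox2 arrays.

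Of the 142 members 59 matched exactly 1 gene, for 53 genes, and 83 matched none in the annotation used (assembly ASM3414082v1). Few of the genes carry a name there, and the others are given by their locus identifier. No function is stated for these, and members without a gene are called by their rank in the difference between the genotypes, from 1 for the largest to 142. The median difference between the genotypes was 1.38, with a range of 0.26 to 8.66. It reached 1 in 88 members, 2 in 54, 4 in 20 and 6 in 8. The gap between the highest WT and the lowest osnox2 array was at least 1 in 34 members and at least 2 in 19.

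**Figure D1:**
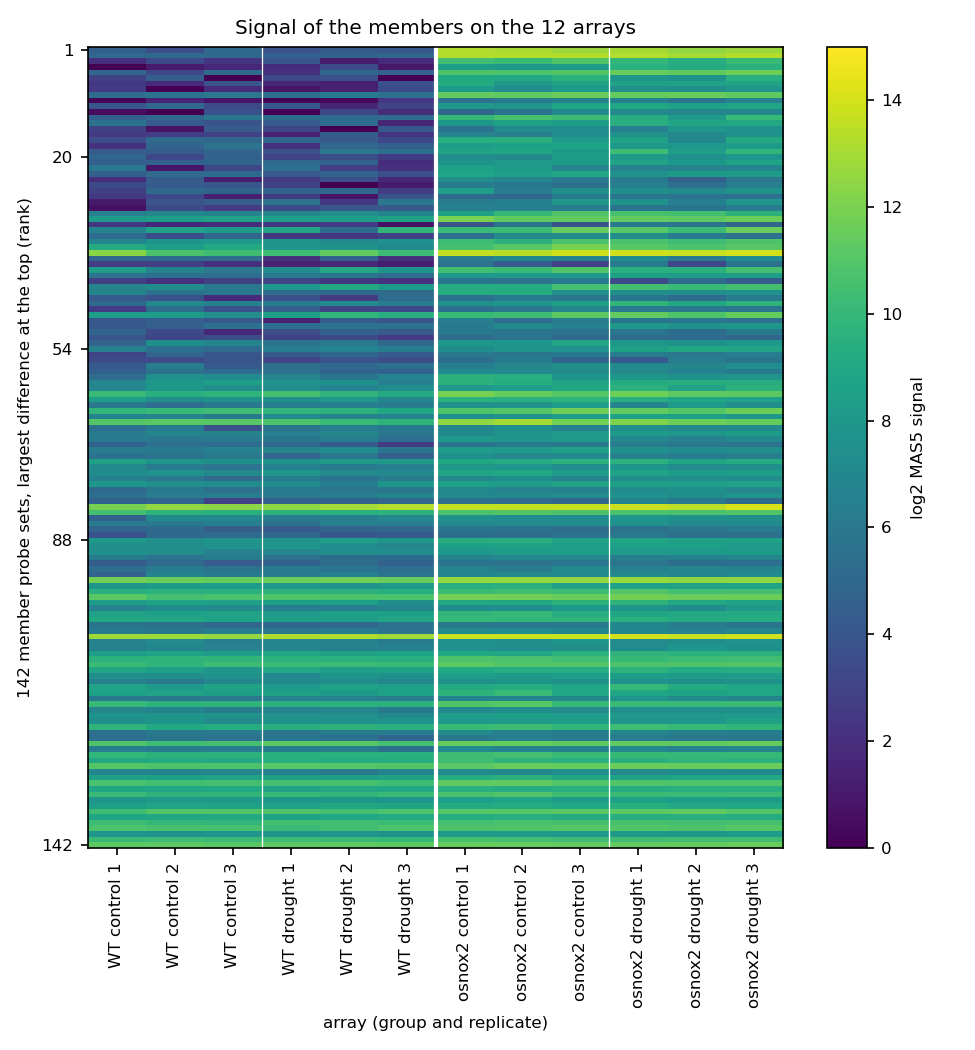
Log2 MAS5 signal (colour) of the 142 members (rows, ordered by the difference between the genotypes, largest at the top) on the 12 arrays (columns, by group and replicate). The labelled ranks mark where the difference falls below 4 (rank 20), 2 (rank 54) and 1 (rank 88), and the uppermost rows are dark on the 6 WT arrays and bright on the 6 osnox2 arrays.

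The largest difference belonged to LOC4331398 on chromosome 3, which is read by 2 probe sets. The first, rank 1, read 4.52, 3.62 and 5.01 in WT control, 3.85, 4.26 and 4.14 in WT drought, 13.21, 13.10 and 12.75 in osnox2 control, and 12.95, 12.61 and 12.74 in osnox2 drought. The other, rank 2, read 5.12, 5.12 and 5.01, then 4.65, 4.78 and 4.97, in the WT groups and 13.28, 13.25 and 13.27, then 13.28, 12.97 and 13.27, in the osnox2 groups. Both probe sets thus lay near or below the array median in WT and among bright signals in osnox2, with gaps of 7.60 and 7.85 between the genotypes. The differences of means were 8.66 and 8.28. They were 8.64 and 8.18 in control and 8.68 and 8.37 under drought.

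LOC4340325 on chromosome 6 read 4.95, 3.27 and 5.16 in WT control and 2.21, 5.02 and 4.69 in WT drought through the probe set of rank 5. In osnox2 the values were 10.79, 10.75 and 10.999 in control and 11.50, 11.33 and 11.71 under drought. The difference was 6.96 and the gap 5.59. A second probe set matched to the same gene is no member, and its mean difference was -0.09. The 2 probe sets of LOC4340325 therefore disagree on whether the genotypes differ.

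The next largest differences belonged to probe sets with no matched gene. Rank 3 read 2.06, 3.36, 2.29, 3.90, 1.14 and 1.87 over the WT arrays and 10.39, 10.15, 10.92, 9.92, 9.36 and 10.18 over the osnox2 arrays, a difference of 7.72. Rank 4 read 0.00, 1.07, 1.70, 1.96, 3.29 and 0.96 in WT and 8.41, 8.10, 8.31, 9.56, 9.22 and 9.60 in osnox2, a difference of 7.37. In both, control arrays are listed before drought arrays, and every WT value lay below every array's median. Rank 9 differed by 5.70 from a higher WT level, with 5.33, 5.74 and 6.01 in WT control, 5.51, 6.10 and 5.50 in WT drought, 11.39, 11.25 and 11.56 in osnox2 control, and 11.43, 11.50 and 11.28 in osnox2 drought. Its 6 osnox2 arrays spanned a narrower range than its 6 WT arrays. The others among the 12 largest, ranks 6, 7, 8, 10, 11 and 12, differed by 6.41, 6.20, 6.06, 5.34, 4.99 and 4.94, and none of them matched a gene.

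**Figure D2:**
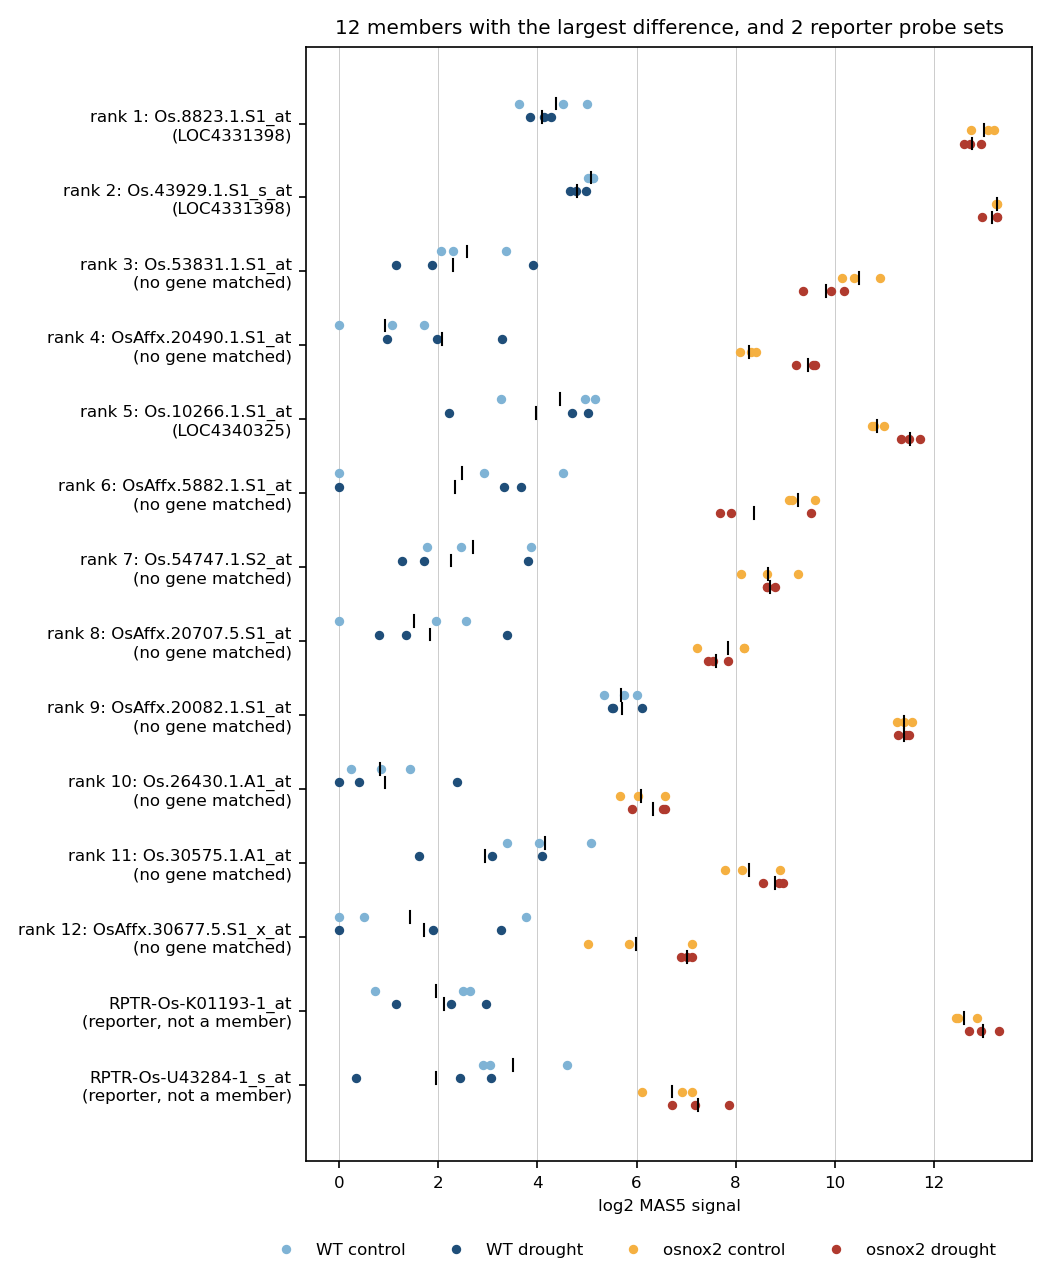
Log2 MAS5 signal (horizontal axis) of the 12 members with the largest difference and of 2 reporter probe sets that are no members. Points are single arrays coloured by group, and short black bars are means of the 3 arrays of a group; in every row the WT and osnox2 points are separate, by 7.60 and 7.85 for the 2 probe sets of LOC4331398.

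The size of a difference from a dim WT level depends on how low signals are treated, since log2 spreads values near 0. An offset of 64 added to the linear signal before log2 brought the LOC4331398 differences to 6.52 and 6.66, that of LOC4340325 to 4.79 and that of rank 4 to 2.99. It brought rank 10 from 5.34 to 1.08. Across the members 38 differences fell to 50% or less of their size, and 26 still reached 2. In 7 members at least 1 WT array stood at the lowest value in the table.

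The members ranged from dim to bright in WT. In 27 members all 6 WT arrays lay below the array median and all 6 osnox2 arrays above it, while the mirror image occurred in 3 of the 119 probe sets lower in osnox2. At the other end 81 members were above the median on all 12 arrays, and 34 members did neither. A difference of at least 2 was seen in 54 members, against 13 of the 119 in the opposite direction. These comparisons of the sets were not tested, since the values that chose the sets also give them.

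Probe sets named OsAffx, which were designed from predicted genes, and probe sets with no matched gene were counted among the members. The rule did not use either of these directly. OsAffx probe sets made up 42 members, or 29.6%, against 25.1% of all kept probe sets and 16.0% of the set lower in osnox2. Exactly 1 gene was matched for 41.5% of the members, 58.2% of kept probe sets and 65.5% of the set lower in osnox2. Within the members the match went with size. Of the 54 that differed by at least 2, 10 matched 1 gene, or 18.5%, and of the 88 that differed by less, 49 did, or 55.7%. Of the 27 that crossed the median, 5 matched 1 gene and 12 were OsAffx, and these 27 passed the filter only through their osnox2 arrays. The match went with brightness too. Of the 81 members above the median on all 12 arrays, 42 matched 1 gene, or 51.9%, and 12 were OsAffx, or 14.8%. Of the 36 below it on all WT arrays, 7 matched 1 gene, or 19.4%, and 19 were OsAffx, or 52.8%. These 36 passed the filter only through their osnox2 arrays and are part of the shares of all members. Those shares are therefore not independent of the rule and were not tested. Size and brightness were not told apart.

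Named genes among the members were few. Pir7b (LOC4326788, chromosome 1), an esterase gene of rice known from defence against bacteria, read 5.18, 7.14 and 6.55 in WT control, 6.32, 7.30 and 6.33 in WT drought, 7.67, 7.88 and 8.55 in osnox2 control, and 9.83, 8.94 and 9.75 in osnox2 drought. Its values were highest in droughted osnox2 plants. Its difference between the genotypes was 1.74 in control and 2.86 under drought, which the interaction test below did not tell apart. Its lowest WT value and its 2 lowest osnox2 values were on the 3 arrays that stood apart, whose part in this was not tested. HAP2A (LOC4338255, chromosome 5), a subunit of a factor that binds CCAAT boxes in promoters, read 6.66, 6.66 and 6.05, then 7.10, 6.58 and 6.71, in the WT groups and 7.50, 7.67 and 8.24, then 8.59, 8.47 and 7.95, in the osnox2 groups. Its difference was 1.45.

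ACS2, also named ACC2 (LOC4336750, chromosome 4), encodes ACC synthase, which makes the precursor of the hormone ethylene. It read 4.66, 4.87 and 2.99 in WT control, 4.66, 4.76 and 4.93 in WT drought, 5.50, 5.24 and 4.96 in osnox2 control, and 6.73, 6.06 and 5.16 in osnox2 drought. The genotypes were apart by a gap of only 0.03, and the difference of 1.13 came down to 0.39 with the offset of 64. FBA3, also named AldC-1 (LOC4325027, chromosome 1), encodes fructose-bisphosphate aldolase, an enzyme of sugar breakdown. Through its member probe set it read 8.39, 8.67 and 8.22, then 8.80, 8.56 and 8.68, in the WT groups and 8.96, 8.81 and 9.56, then 9.75, 9.57 and 9.65, in the osnox2 groups, a difference of 0.83. Its other probe sets, at 0.09 and 0.13, are no members.

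Genes were also looked up in 7 lists by the start of their names: NADPH oxidases, scavenging of reactive oxygen, jasmonate, defence, cell wall, chromatin and DNA methylation, and chaperones and protein turnover. The lists together held 225 kept probe sets, of which 1 was a member, Pir7b in the defence list. That is 0.444%, and the members are 0.444% of all kept probe sets too. The lists hold names and not whole pathways: the start of a name also drew PIP aquaporins and PIN auxin transporters into the defence list, GRF genes into the scavenging list, and several genes named bip with a number into the chaperone list. The NADPH oxidase list held 1 gene, RBOHB, which is no member. Only 2121 of the 15392 kept genes have a name, so most genes of a pathway may lie outside its list.

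For 18 of the 53 genes the array carries 2 or more probe sets, which gives a second reading of the same gene. In 5 genes at least 2 probe sets were members. Besides LOC4331398 these were LOC4350599 on chromosome 11 (differences of 3.17 and 2.91), LOC4326755 (0.93 and 0.91), LOC4327138 (0.92 and 0.73) and LOC4323884 (0.90, 0.87 and 0.82), the last 3 genes all on chromosome 1. Another probe set of LOC4350599 differed by 1.93 without separating the genotypes. In 14 genes a further kept probe set was no member. There were 16 such probe sets, of which 15 had a higher mean in osnox2, with differences from -0.09 to 1.93.

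**Figure D3:**
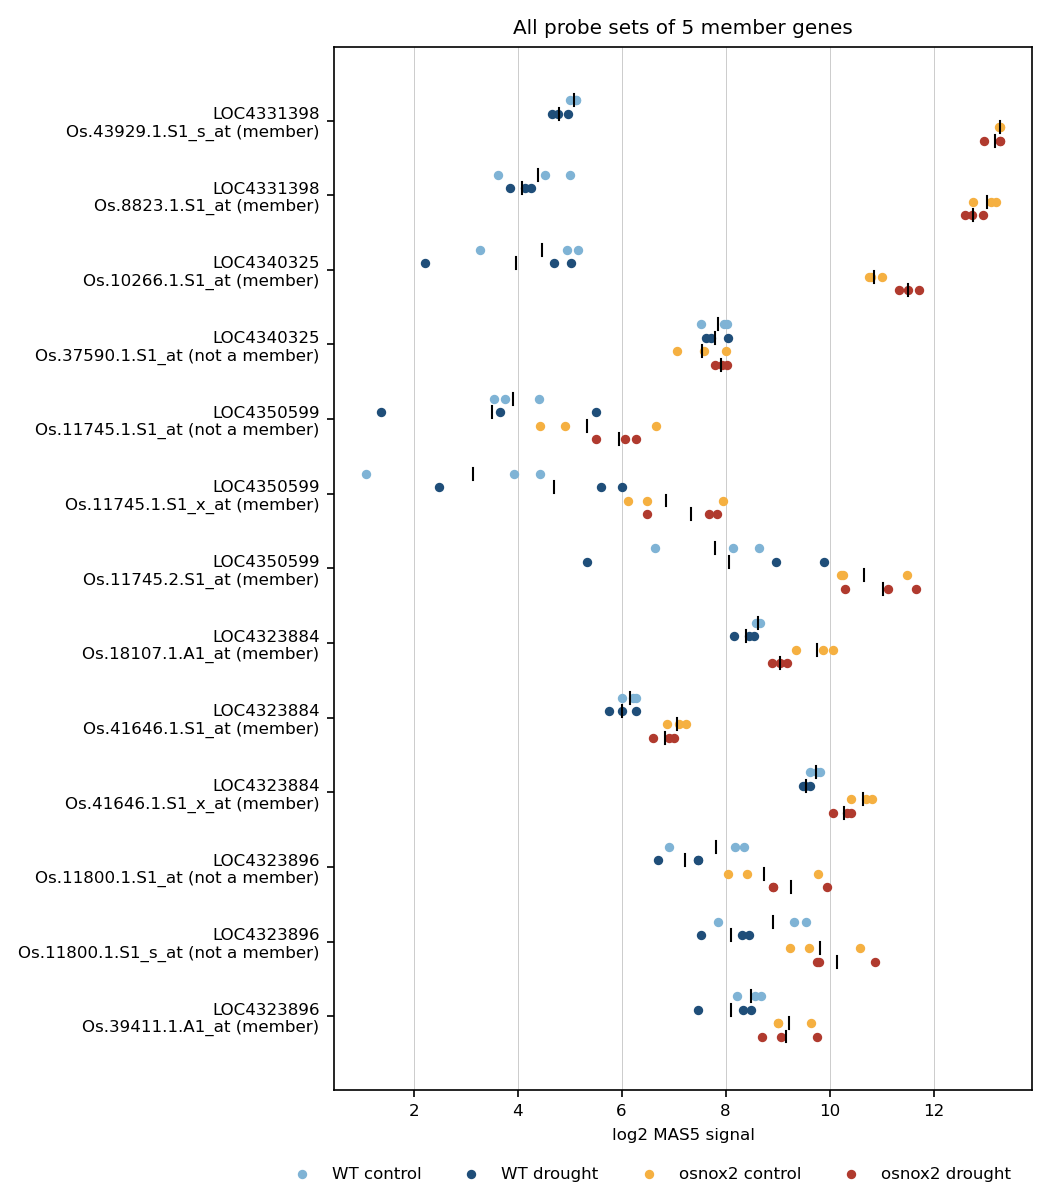
Log2 MAS5 signal (horizontal axis) for all probe sets matched to 5 member genes, with single arrays as points coloured by group and group means as short black bars. Both probe sets of LOC4331398 separate the genotypes widely, whereas the lower of the LOC4340325 probe sets, with a mean difference of -0.09, does not separate them.

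The member genes lay on all 12 chromosomes, with 11 of the 53 on chromosome 1, or 20.8%, where 14.9% of kept genes lie. In 6 pairs the genes were within 200000 bases of each other in the assembly named above. How often other kept genes lie this close was not counted, so the pairs are given as a description. LOC4331397 and LOC4331398 are neighbours on chromosome 3, 237 bases apart with no annotated gene between them. LOC4331397 read 4.60, 5.62 and 5.25, then 5.65, 4.82 and 4.66, in the WT groups and 7.32, 7.11 and 7.20, then 7.03, 6.62 and 6.25, in the osnox2 groups. Its difference of 1.82 was thus much smaller than that of its neighbour. Within 100000 bases of LOC4331398, 25 other kept probe sets of 19 genes had differences of -1.26 to 0.70 and were no members. Around LOC4340325, 7 kept probe sets of 6 other genes had differences of -0.59 to 0.11. The lowest, that of LOC4340320, read 8.54 to 8.95 on the osnox2 arrays and 9.17 to 9.58 on the WT arrays, without overlap.

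On chromosome 4 the members LOC4334949 (1.80) and LOC4334958 (1.04) lie 86565 bases apart. Between them lies LOC4334952, chosen after its values were seen, which went the other way: it read 10.57 to 10.81 on the WT arrays and 0.54 to 8.17 on the osnox2 arrays, a difference of -8.29. The other pairs were LOC4338032 and LOC4338034 on chromosome 5 (23859 bases), LOC9271191 and LOC4348369 on chromosome 10 (73664 bases), LOC4323884 and LOC4323896 on chromosome 1 (106454 bases), and LOC9268279 and LOC4340564 on chromosome 6 (124314 bases). From 2 to 13 annotated genes lie between the genes of these pairs and of the pair on chromosome 4.

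At the edge of the rule the genotypes almost touched. Just inside it were LOC4331793 with a gap of 0.0063, FBA3 with 0.0096 and LOC4323896 with 0.0112. Just outside were LOC4333470 at -0.0001, LOC4327335 at -0.0014 and a probe set with no matched gene at -0.0025, where a negative gap is an overlap.

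Some members read differently on arrays that stood apart, counted here on those of osnox2. In 25 members, or 17.6%, osnox2 control replicates 1 and 2 were the highest osnox2 arrays, against 19.8% of kept probe sets. They were the lowest in 19, or 13.4%, against 29.2%. WT control replicate 1 was also the highest WT array in 8 of the 25 and the lowest in 4 of the 19. Low values on osnox2 arrays make an overlap with WT arrays likelier, so such probe sets meet the rule less easily. These shares are therefore not independent of the rule and are given as a description. LOC4334949 read 9.48 and 9.52 on osnox2 control replicates 1 and 2 and 7.73 to 7.96 on the other osnox2 arrays. On WT control replicate 1 it had its lowest WT value, so the genotypes went opposite ways. Without the 3 arrays that stood apart its difference between the genotypes was 0.99 in place of 1.80. The differences of the LOC4327138 probe sets, 0.92 and 0.73, were 0.61 and 0.38 without them.

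The tests below ask whether the members differed between drought and control. The rule took no difference between conditions, but it used the drought and the control arrays. An equal drought change in both genotypes that exceeds the difference between them makes the genotypes overlap. A probe set with such a change could not meet the rule. The counts of members are therefore not independent of the rule and are given as a description beside those of all kept probe sets. The tests come from a limma fit of the 4 group means over all kept probe sets, two-sided, with Benjamini-Hochberg adjustment and a call at an adjusted p under 0.05.

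None of the 142 members was called for drought in WT, where 0.0843% of all kept probe sets were called higher and 0.0469% lower. In osnox2 likewise none was called, against 0.291% called higher and 0.241% lower. A count of 0 among 142 is near these shares. At an unadjusted limma p under 0.05 there were 17 members for WT, or 12% against 10.8% of all, and 21 for osnox2, or 14.8% against 18%. The median change was -0.06 in WT, where that of all kept probe sets was 0.02, and 0.00 in osnox2, where it was 0.08. The standard error of a change had a median of 0.33 and ran from 0.09 to 1.18.

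**Figure D4:**
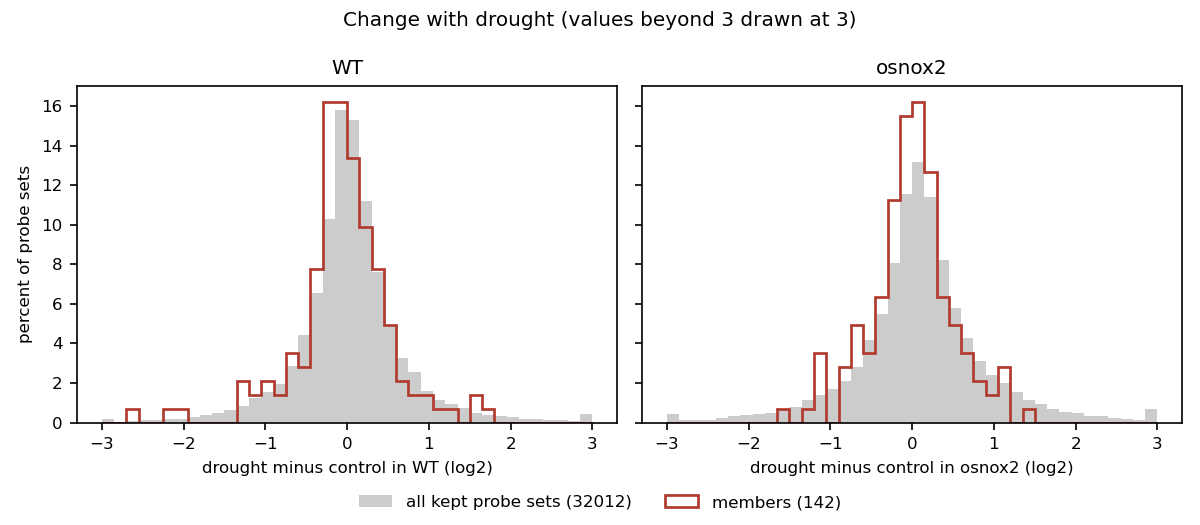
Change with drought (drought minus control, log2; horizontal axis) in WT and in osnox2, as percent of probe sets (vertical axis), for the 142 members (red outline) and all 32012 kept probe sets (grey). Both distributions centre close to 0, with member medians of -0.06 in WT and 0.00 in osnox2.

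The drought minus control difference of LOC4331398 was -0.30 ± 0.30 (SE) in WT and -0.25 ± 0.30 in osnox2 through the probe set of rank 1, and -0.28 ± 0.14 and -0.09 ± 0.14 through that of rank 2. Neither probe set passed. That of Pir7b in osnox2 was 1.48 ± 0.49, with a 95% interval of 0.39 to 2.57 and a limma adjusted p of 0.185. The smallest adjusted p in osnox2 were those of the member of rank 70, at -1.10 ± 0.29 (limma adjusted p = 0.112), 1 of the 3 probe sets of LOC4323884, at -0.72 ± 0.19 (0.123), and LOC4351983, at 1.17 ± 0.32 (0.125). In WT it was that of the member of rank 43, at 1.66 ± 0.42 (limma adjusted p = 0.168). The other probe sets of LOC4323884 were at -0.23 ± 0.24 (0.634) and -0.38 ± 0.14 (0.215). The members with the smallest p were picked after the values were seen.

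Without overlap between drought and control arrays, 7 members read higher and 16 lower under drought in WT, where 9.92% and 8.07% of kept probe sets did. In osnox2 10 read higher and 15 lower, where 14.5% and 8.32% did. In both genotypes 4 members read lower under drought, or 2.82% against 2.38% of kept probe sets, and none higher, against 4.63%. No member read higher under drought in 1 genotype and lower in the other by this count, as 0.269% of kept probe sets did.

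The interaction asks whether the difference between the genotypes was larger in droughted than in watered plants. No member was called, and no kept probe set was (0%). At an unadjusted limma p under 0.05 there were 4 members, or 2.82% against 3.36% of all. The difference was larger under drought in 74 of the 142, or 52.1%, and the interaction was positive in 56.5% of all kept probe sets. The median interaction was 0.01, where that of all kept probe sets was 0.07. Among the members it ranged from -2.10 to 2.76, with a median standard error of 0.47. For LOC4331398 it was 0.04 ± 0.43 through the probe set of rank 1, with a 95% interval of -0.91 to 0.99, and 0.19 ± 0.20 through that of rank 2, with an interval of -0.25 to 0.62. For LOC4340325 it was 1.16 ± 0.96, with an interval of -0.96 to 3.27. For Pir7b it was 1.12 ± 0.70, with an interval of -0.42 to 2.67 (limma adjusted p = 0.986). The intervals thus leave room for a change of the LOC4340325 and Pir7b differences in either direction. The smallest p was that of the member of rank 25, at 2.76 ± 1.03 (limma adjusted p = 0.986).

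**Figure D5:**
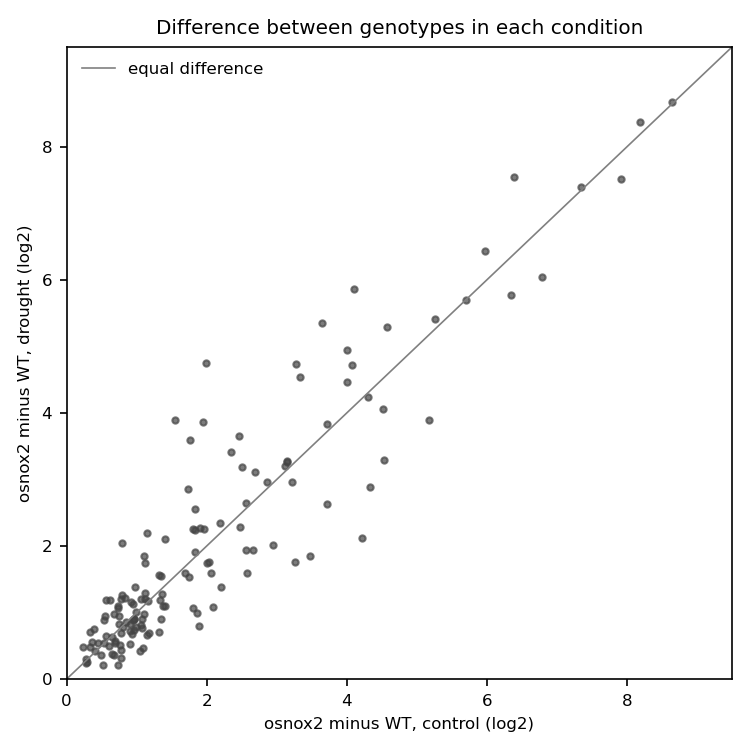
Difference between osnox2 and WT (log2) in control plants (horizontal axis) and in droughted plants (vertical axis), 1 point per member, with the line of equal difference. The 142 points run from LOC4331398 at 8.64 and 8.68 down to members under 0.5, and the rule made both differences positive. They lie on both sides of the line, 74 of them above it, at vertical distances of -2.10 to 2.76.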

How the data were processed

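Leaf RNA was hybridised to 12 Affymetrix rice arrays. The authors deposited a table of log2 signals that covers 57258 probe sets. The submitters' processing notes name MAS5 and give no version. The trimmed mean of the linear signal was 497 or 498 on every array. No detection calls and no scan dates were used, and the genome build behind the array is not given in the sources used here. For arrays, precision is limited by their number, 3 per group. The labels call them biological replicates without naming plants or pots, so how independent the arrays of a group are is not known. The p-values weigh a change against the spread between these samples within their groups.

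The members and lists were chosen with earlier results of these data known. Probe sets above the array median on at least 3 arrays were kept (32012, without the 64 reporters). Genes came from the platform annotation and the RefSeq gene table of assembly ASM3414082v1, and 22436 probe sets matched 1 gene. The 4 group means were fitted with limma 3.58.1 in R 4.3.3 (eBayes with trend), with Benjamini-Hochberg adjustment over all kept probe sets, and the fit was tested on simulated data. Tables and plots used Python 3.11.15, numpy 2.4.6, pandas 2.3.3 and matplotlib 3.10.9.

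Named are LOC4331398 and LOC4340325, the 12 largest differences, up to 20 members with a gene name, up to 6 called members per direction, genes with several member probe sets, genes within 200000 bases of each other, 3 probe sets on each side of the rule's limit, and list members. Names outside this rule were chosen after their values were seen. Alternatives were other filters (none, 75th percentile), offsets of 16 and 64, quantile normalization, median centring, no trend, only the groups compared, a log2 change of at least 1, a gap of at least 1, a replicate block, each array left out, and no arrays that stood apart.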

Additional observations from a re-analysis of the deposited data

Results flagged for a closer look

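The genotypes did not overlap in 2 reporter probe sets, which stand outside the comparisons above. RPTR-Os-K01193-1_at read 0.73, 2.49 and 2.64 in WT control and 2.25, 2.97 and 1.15 in WT drought, and 12.45, 12.49 and 12.87 in osnox2 control and 13.32, 12.72 and 12.96 in osnox2 drought, a difference of 10.76. RPTR-Os-U43284-1_s_at read 2.90, 4.60 and 3.03, then 0.33, 3.07 and 2.43, in the WT groups and 7.11, 6.91 and 6.12, then 7.18, 6.71 and 7.86, in the osnox2 groups, a difference of 4.25. The other 62 reporters read at most 6.73 on any array, and their mean differences ran from -2.24 to 2.03.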

How the results depend on the processing

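The count of 142 members was 62 with a filter at the 75th percentile, 34 with a gap of at least 1, and 610 without the 3 arrays that stood apart, of which 136 were among the 142. Fewer arrays make the rule easier to meet by construction, and a member stays separated on any subset of arrays, so the shared count bears only on the filter. Without 1 array the count ran from 153 to 268, the highest without WT control replicate 1. It was 166 without a filter, 145 after quantile normalization (126 shared) and 151 after median centring (125 shared). For drought in WT and for the interaction, 0 members were called under every alternative run. In osnox2, 1 was called with the offset of 64 and 1 with the offset of 16, the rank 4 member in both, at 1.05 ± 0.14 (limma adjusted p = 0.0199) and 1.15 ± 0.21 (0.0464). Without 1 array the osnox2 count ran from 0 to 11. It was 1 without WT control replicate 1 (LOC4351983) and 11 without osnox2 control replicate 3, which leaves osnox2 control with the 2 arrays that stood apart, and then 5505 kept probe sets, or 17.2%, were called. With the replicate block 0 members were called in each of the 3 contrasts. Nothing in the labels ties a replicate number to a pot, and of 18 same-numbered pairs 5 correlated above 0.1, with r from -0.25 to 0.37, and 6 of 12 arrays correlated best with their own number. Among 36 named members the difference between the genotypes moved by more than the replicate spread for 20 with the offset of 64, 12 with 16 and 3 without the 3 arrays, and for 0 with quantile normalization, centring or 1 array left out. None reversed. The alternatives for these differences other than the offset of 64 were chosen after seeing the data.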
